A study of Homo sapiens with 4 samples.

Results

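Glycosyltransferases build the sugar chains of cell surface and secreted proteins and of glycolipids, and 38 of their genes were followed here by ATAC-seq, a transposase-based assay of open chromatin. The genes cover N-glycan branching, fucosylation, galactosylation, sialylation, and O-glycan and I-branching. They were given by name. A counted stretch of open DNA, here called an interval, belonged to a gene when its midpoint lay in the gene body, and otherwise when that gene had the nearest end of a protein-coding gene within 100 kb. By this rule 326 of the 73135 intervals in the data belonged to 36 of the 38 genes, 232 of them inside the gene body and 94 outside. The fucosyltransferase gene FUT4 and the sialyltransferase gene ST3GAL6 had none, and the other 36 had between 1 and 26 intervals each. All 326 intervals passed the filter on low counts. Position alone leaves unknown which gene such an interval acts on.

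The libraries came from TMD8, an established human line of diffuse large B cell lymphoma that the labels class as ABC, the activated B cell-like subtype. The shIRF4 group held 2 libraries of TMD8 cells with a short hairpin RNA against IRF4, a transcription factor of activated B cells and plasma cells. The control group held 2 libraries of TMD8 cells, which the design text describes as given a scrambled hairpin. The library names of the shIRF4 group read siIRF4, and no label gives the time after knockdown, the hairpin sequence or whether the libraries came from separate cultures. The p-values below therefore measure only the spread between these libraries, which may be technical. Total counts were 17954924 and 9112860 in the shIRF4 libraries and 12152153 and 13609123 in the control libraries. Levels are in CPM, reads relative to the TMM-scaled library size, and at these depths 1 CPM stood for 18.4 and 9.17 reads in the shIRF4 libraries and for 11.9 and 13.4 reads in the control libraries. The shIRF4 pair differed more from each other (chi-square per degree of freedom 2.01) than the control pair (1.04), and each library was kept as a replicate. Open DNA at a gene does not measure its mRNA, so the knockdown itself could not be checked. All 6 B cell marker genes had intervals at a gene end, with summed levels of 733 to 790 CPM in shIRF4 and 731 to 740 CPM in control. CD3D, CD2, NCAM1, KLRD1, LYZ, CSF1R, EPCAM and KRT8, markers of other cell types, had no such interval. NKG7, the 1 of 3 NK cell markers with an interval, had 248 to 266 CPM in shIRF4 and 272 to 277 CPM in control, and the T cell (2 of 4), myeloid (1 of 3) and epithelial and fibroblast (2 of 4) lists summed to between 8.29 and 36.6 CPM in shIRF4 and between 8.89 and 43.3 CPM in control.

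N-glycans are trimmed in the Golgi to a core that MGAT enzymes extend with N-acetylglucosamine branches. Galactosyltransferases lengthen the branches, and sialyltransferases cap them. FUT8 adds a fucose to the core, and the GALNT enzymes start mucin-type O-glycans on serine and threonine. In B cells the cap made by ST6GAL1 is the ligand of the inhibitory receptor CD22, and galectins read the branched, galactose-ended chains. IRF4 binds DNA weakly alone and pairs with ETS factors at a composite element (GGAA and GAAA set apart by any 2 bases) or with AP-1 family factors near TGANTCA elements, while the interferon-type element holds GAAA and GAAA set apart by any 2 bases.

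The start of ST6GALNAC4 was the only listed gene start among these genes with a changed interval, so the 250 bases before it are shown, with those of a neighbour on the same chromosome and of a galactosyltransferase whose windows hold an ETS-IRF composite match. They are RefSeq sequences of GRCh38.p14, read 5′ to 3′ on the gene's strand, and capitals mark the match on either strand.
ST6GALNAC4, chr9:127917042-127917291, minus strand: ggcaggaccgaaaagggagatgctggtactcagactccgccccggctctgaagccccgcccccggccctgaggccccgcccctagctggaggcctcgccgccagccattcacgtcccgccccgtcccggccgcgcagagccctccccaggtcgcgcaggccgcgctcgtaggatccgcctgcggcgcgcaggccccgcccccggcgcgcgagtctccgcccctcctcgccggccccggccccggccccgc
ST6GALNAC6, chr9:127899604-127899853, minus strand: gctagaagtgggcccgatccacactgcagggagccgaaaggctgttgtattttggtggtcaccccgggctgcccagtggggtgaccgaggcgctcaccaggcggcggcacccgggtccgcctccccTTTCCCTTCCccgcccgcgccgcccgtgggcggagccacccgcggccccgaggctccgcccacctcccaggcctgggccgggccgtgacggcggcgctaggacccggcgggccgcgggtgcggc
B4GALT3, chr1:161177508-161177757, minus strand: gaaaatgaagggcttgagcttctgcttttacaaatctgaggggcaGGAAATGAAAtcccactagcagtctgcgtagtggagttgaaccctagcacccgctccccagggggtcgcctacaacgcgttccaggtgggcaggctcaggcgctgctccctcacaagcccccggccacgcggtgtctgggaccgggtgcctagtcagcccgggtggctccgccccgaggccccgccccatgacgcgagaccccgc
The ST6GALNAC4 window held none of the 3 motifs. The ST6GALNAC6 match began 124 bases before the listed start and the B4GALT3 match 205 bases before it. Listed starts were at hand for 31 of the 38 genes, which had 62 such windows. The ETS-IRF composite lay in 4 of the 62 (B4GALT3, ST6GALNAC6, ST3GAL4 and GCNT2), against 2.41% of all 35116 RefSeq windows of this length. TGANTCA lay in 3 (FUT8, MGAT1 and MGAT5B), against 6.57% of all, and the interferon-type element in 0, against 3.02% of all. The intervals over the ST6GALNAC6 and B4GALT3 matches did not pass the test: ST6GALNAC6 had 31.9 and 31.0 CPM in shIRF4 and 33.6 and 31.4 CPM in control, and the B4GALT3 interval had a log2 fold change of -0.03 (edgeR adjusted p = 0.828). A match is a description of letters, not of binding.

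The comparison asks how open DNA at these genes differed between TMD8 cells with IRF4 silenced and control cells. Fold changes are given as log2FC, the log2 of shIRF4 over control with its standard error (SE). Of the 326 intervals, 51 were lower in shIRF4 (15.6%) and 32 were higher (9.82%), with an adjusted p under 0.05 in edgeR's quasi-likelihood test over all 73028 tested intervals. Over all tested intervals the shares were 15.5% lower and 7.27% higher, so the share that fell was close to that of the whole genome. The median log2 fold change was 0.00 over the 326 and 0.01 over all tested intervals. The lower intervals had a median of -0.70, as did all lower intervals, and the higher ones a median of 0.58, against 0.67 for all higher intervals. A change of at least 2-fold was seen in 16 of the lower and 2 of the higher intervals. In a bulk library an interval that is open in fewer cells and an interval that is cut less often in each cell cannot be told apart. The counts rested in part on single libraries. Lower and higher intervals numbered 33 and 17 without shIRF4 replicate 1, 53 and 40 without shIRF4 replicate 2, 42 and 20 without control replicate 1, and 38 and 18 without control replicate 2. The matching shares of all intervals were 8.79% and 3.58%, 18% and 9.41%, 10.5% and 3.96%, and 11.1% and 3.87%. DESeq2 called 17 lower and 6 higher, against 5.07% and 1.17% of all intervals.

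**Figure D1:**
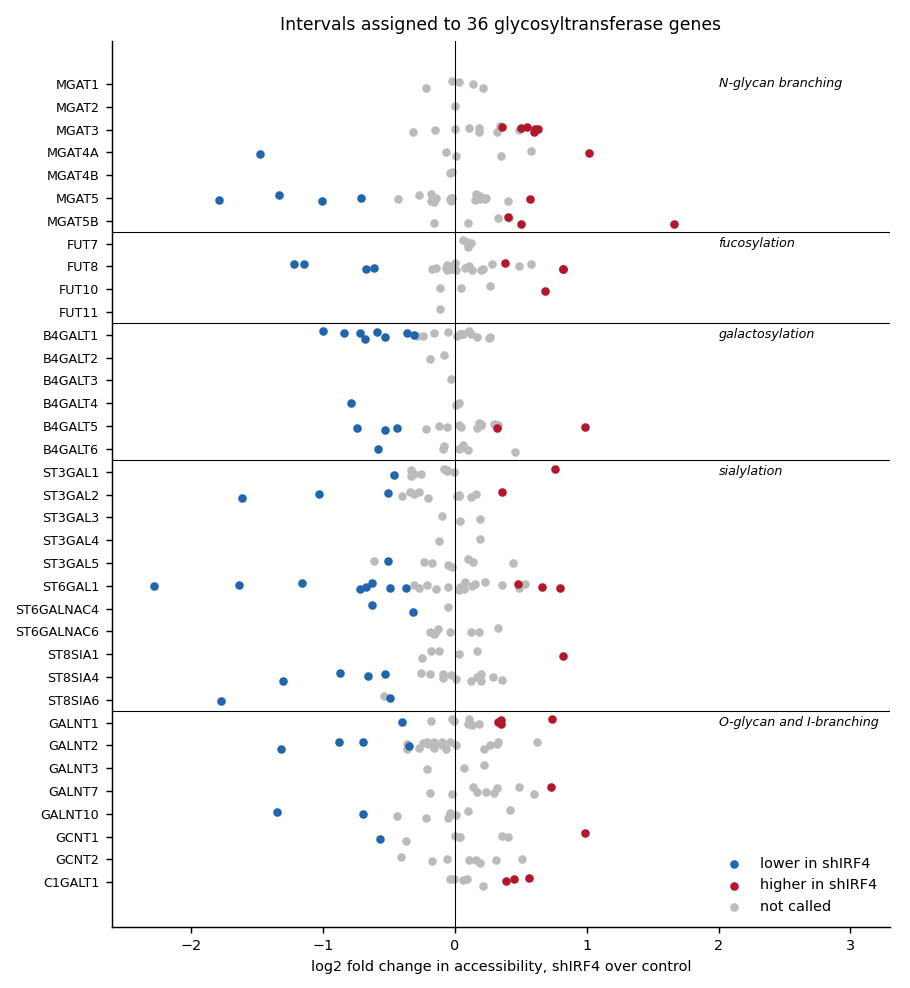
Each point is 1 of the 326 intervals, placed by its log2 fold change, shIRF4 over control, in the row of its gene. Genes are grouped by role, and colours mark the 51 lower, 32 higher and 243 other intervals. Changed intervals lie on both sides of 0, and several genes hold both lower and higher ones.

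The changed intervals were spread over 24 genes, and several genes changed in both directions. A gene with more intervals has more room for a changed one. The share of all genes with a changed interval is not given here, so these counts do not set the 24 genes apart. Lower intervals belonged to 18 genes and higher intervals to 15. MGAT4A, MGAT5, FUT8, B4GALT5, ST3GAL1, ST3GAL2, ST6GAL1, GALNT1 and GCNT1 had both. B4GALT1, B4GALT4, B4GALT6, ST3GAL5, ST6GALNAC4, ST8SIA4, ST8SIA6, GALNT2 and GALNT10 had lower intervals only, and MGAT3, MGAT5B, FUT10, ST8SIA1, GALNT7 and C1GALT1 higher intervals only. MGAT1, MGAT2, MGAT4B, FUT7, FUT11, B4GALT2, B4GALT3, ST3GAL3, ST3GAL4, ST6GALNAC6, GALNT3 and GCNT2 had no interval that passed. DESeq2 called intervals at 13 genes: MGAT3, MGAT4A, MGAT5, MGAT5B, B4GALT1, ST3GAL2, ST6GAL1, ST8SIA4, ST8SIA6, GALNT1, GALNT2, GALNT7 and GALNT10. With 1 library left out, a higher interval was also called at B4GALT1 (without control replicate 2), at GALNT2 and GALNT10 (without shIRF4 replicate 2) and at ST3GAL5 (without either shIRF4 library), and a lower interval at GCNT2 (without control replicate 2).

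By role, N-glycan branching had 5 lower and 11 higher of 58 intervals (8.62% and 19.0%), and fucosylation 4 and 4 of 34 (11.8% each). Galactosylation had 13 lower and 2 higher of 53 (24.5% and 3.77%), sialylation 21 and 6 of 100 (21.0% and 6.0%), and O-glycan and I-branching 8 and 9 of 81 (9.88% and 11.1%). Single genes weighed heavily: B4GALT1 held 8 of the 13 lower galactosylation intervals, and ST6GAL1 8 of the 21 lower sialylation intervals. MGAT3 held 6 and MGAT5B 3 of the 11 higher N-glycan branching intervals. Intervals of 1 gene lie close together and are not independent, and the difference between roles was not tested. Galactosylation had 7 lower and 2 higher without control replicate 2, and 6 and 0 without the first shIRF4 library. Fucosylation had 0 lower and 1 higher without shIRF4 replicate 1, and 2 and 2 without control replicate 2. Higher intervals at N-glycan branching genes numbered 7 when either control replicate 2 or shIRF4 replicate 1 was left out, and 8 without control replicate 1; lower ones numbered 3 without control replicate 2. Sialylation had 18 to 22 lower intervals whichever library was left out, and its 6 higher ones became 2 without control replicate 2. At O-glycan and I-branching genes the 9 higher intervals became 5 without control replicate 1, control replicate 2 or shIRF4 replicate 1, and 13 without shIRF4 replicate 2, and the 8 lower became 5 without shIRF4 replicate 1. In DESeq2, which called 5.07% of all intervals lower and 1.17% higher, lower and higher intervals numbered 3 and 3 of 58 for N-glycan branching, 0 and 0 of 34 for fucosylation, 2 and 0 of 53 for galactosylation (3.77% lower, below the share of all), 9 and 1 of 100 for sialylation, and 3 and 2 of 81 for O-glycan and I-branching.

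**Figure D2:**
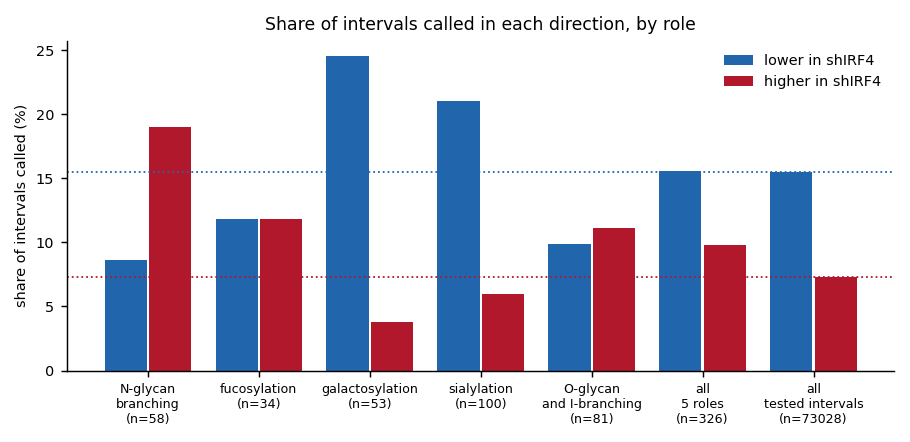
Bars give the share of each role's intervals that was lower or higher in shIRF4 in percent, with lines at the shares over all tested intervals (15.5% lower, 7.27% higher). In edgeR, galactosylation and sialylation stand above the line for lower intervals. N-glycan branching (19.0%), fucosylation (11.8%) and O-glycan and I-branching (11.1%) stand above the line for higher intervals. Few genes carry much of this: B4GALT1 holds 8 of 13 lower galactosylation intervals, and MGAT3 6 of 11 higher N-glycan branching intervals.

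Gene starts changed little. Of 47 intervals within 1 kb of a start of their own gene, 1 was lower and 1 higher (2.13% each). For the 7 genes with no listed start, either gene end was used. Of all 13899 intervals within 1 kb of the start of any gene, 5.30% were lower and 4.91% higher. Farther from the start of their own gene, 50 of 279 were lower (17.9%) and 31 higher (11.1%). Of all intervals farther than 1 kb from any gene start, 17.9% were lower and 7.82% higher. The sets are not defined alike, since an interval at the start of another gene would count among the 279. The start interval of ST6GAL1 (chromosome 3, 186929931 to 186931808) had 31.2 and 28.0 CPM in shIRF4 and 32.9 and 32.9 CPM in control. That of B4GALT1 (chromosome 9, 33165574 to 33168543) had 96.8 and 99.5 CPM in shIRF4 and 98.7 and 95 CPM in control, and that of FUT8 (chromosome 14, 65411553 to 65414084) had 84.2 and 77.9 CPM in shIRF4 and 80.2 and 82.4 CPM in control. None of these 3 passed, while other intervals of the same genes did. Inside gene bodies 45 of 232 intervals were lower and 17 higher (19.4% and 7.33%), against 14.9% and 7.06% of all intervals in gene bodies. Outside, 6 of 94 were lower and 15 higher (6.38% and 16.0%), against 14.2% and 7.44% of all assigned intervals outside gene bodies. DESeq2 called 1 of these 94 lower and 2 higher, and 16 and 4 of the 232, against 5.07% and 1.17% of all intervals. With a library left out, the shares called over all intervals changed too, as given above. The 15 became 7 without shIRF4 replicate 1, 7 without control replicate 2 and 9 without control replicate 1. At starts, 4 were higher without shIRF4 replicate 2, 0 were higher without control replicate 2, and DESeq2 called none of the 47.

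Among the branching enzymes, MGAT3 makes the bisecting N-acetylglucosamine, which blocks further branching. Its intervals changed in 1 direction only: 6 of 15 rose and none fell. The interval on chromosome 22 at 39465007 to 39466028, in the gene body, had 28.9 and 28.7 CPM in shIRF4 and 18.5 and 18.7 CPM in control. The rise was alike in each shIRF4 library (log2FC 0.63, SE 0.09, edgeR adjusted p = 1.62e-05). The interval at 39456572 to 39458821, over the gene end at 39457012, had 28.8 and 30.3 CPM in shIRF4 and 23.6 and 22.5 CPM in control (0.36, SE 0.09, edgeR adjusted p = 0.00398). The 6 higher intervals lay within 24951 bp, among 5 others that did not pass, and their log2 fold changes ran between 0.36 and 0.63. Without control replicate 1 only 3 of them were called, and without control replicate 2 only 4. The interval over the gene end was lost there (0.32, edgeR adjusted p = 0.0705), and DESeq2 called 1 of the 15.

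MGAT5B, a relative of MGAT5 that acts on O-mannosyl glycans and is best known from brain, carried the largest rise of the set. On chromosome 17, at 76997895 to 76998933 and 48021 bp outside the gene, the interval had 20.2 and 17.7 CPM in shIRF4 and 5.54 and 6.55 CPM in control. Levels were thus more than 2-fold apart (log2FC 1.66, SE 0.13, edgeR adjusted p = 6.78e-09). The next protein-coding gene, SEC14L1, was 90271 bp away. Nearer to MGAT5B, the interval at 76968657 to 76969810 had 30.2 and 23.6 CPM in shIRF4 and 20.1 and 18.8 CPM in control (0.50, SE 0.10, edgeR adjusted p = 0.00114). In all, 3 of its 7 intervals rose, each of them outside the gene. Only the first was called without shIRF4 replicate 1 and in DESeq2, and 2 were called without control replicate 2.

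MGAT5 adds the branch that galectins favour, and MGAT4A a branch on the other arm of the core. In the body of MGAT5 on chromosome 2, the interval at 134247753 to 134247955 had 0.923 and 1.42 CPM in shIRF4 and 4.11 and 3.50 CPM in control (log2FC -1.79, SE 0.27, edgeR adjusted p = 4.53e-05). The interval at 134411369 to 134412478, also in the gene body, went the other way, with 47.2 and 34.9 CPM in shIRF4 and 28.6 and 28.1 CPM in control (0.57, SE 0.10, edgeR adjusted p = 0.00024). The fall thus lay at a weak interval and the rise at a strong interval of the same gene. In all, 4 of the 22 MGAT5 intervals fell, by 0.71 to 1.79 on the log2 scale, all upstream of the 1 that rose. Only 2 of these 4 passed when control replicate 2 or shIRF4 replicate 1 was left out, and in DESeq2, and without shIRF4 replicate 2 there were 3 higher intervals. In the body of MGAT4A, the interval on chromosome 2 at 98664386 to 98664669 had 1.52 and 1.20 CPM in shIRF4 and 3.94 and 3.94 CPM in control (-1.48, SE 0.25, edgeR adjusted p = 0.000133). An interval 30503 bp outside MGAT4A, at 98761467 to 98761804, was higher (1.02, edgeR adjusted p = 0.00594), but not with control replicate 2 (0.67, adjusted p = 0.182) or shIRF4 replicate 1 (0.89, adjusted p = 0.0994) left out, nor in DESeq2, and without shIRF4 replicate 2 MGAT4A had 3 higher intervals. MGAT1, which starts the hybrid and complex glycans, and MGAT2, which opens the other arm, had no changed interval, and the largest differences at MGAT1 were -0.22 and 0.21.

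FUT8 changed in both directions, with 4 lower and 3 higher of 25 intervals. On chromosome 14, in the gene body, the interval at 65490071 to 65490389 had 1.85 and 2.62 CPM in shIRF4 and 4.70 and 4.61 CPM in control (log2FC -1.14, SE 0.23, edgeR adjusted p = 0.000819). The interval at 65732194 to 65732401 had 1.03 and 1.96 CPM in shIRF4 and 3.44 and 2.90 CPM in control (-1.22, SE 0.29, edgeR adjusted p = 0.00309). Between them, the interval at 65581934 to 65582181 had 6.24 and 5.13 CPM in shIRF4 and 3.19 and 3.42 CPM in control (0.82, SE 0.20, edgeR adjusted p = 0.00391). So a higher interval stood between lower ones along the gene. Upstream of FUT8, the interval at 65353075 to 65353636 had 18 and 14.8 CPM in shIRF4 and 12.4 and 13.3 CPM in control (0.38, SE 0.12, edgeR adjusted p = 0.02). No FUT8 interval was called without shIRF4 replicate 1, where these 4 had -0.82 (adjusted p = 0.0655), -0.67 (adjusted p = 0.227), 0.64 (adjusted p = 0.111) and 0.21 (adjusted p = 0.374) in edgeR, and none was called in DESeq2. The interval at 65353075 was also lost with control replicate 1 (0.33, adjusted p = 0.157) or control replicate 2 (0.43, adjusted p = 0.0525) left out. FUT10, listed in RefSeq as POFUT3, a protein O-fucosyltransferase, had 1 higher of 4 intervals, not called in DESeq2 (chromosome 8, 0.68, edgeR adjusted p = 0.0292). That call was lost without control replicate 1 (0.73, adjusted p = 0.0822), control replicate 2 (0.63, adjusted p = 0.155) or shIRF4 replicate 2 (0.50, adjusted p = 0.108). FUT7, which makes the selectin ligand sialyl Lewis x, had 4 intervals between 0.06 and 0.12, none of which passed.

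B4GALT1, the main galactosyltransferase of N-glycans, lost open DNA at part of its intervals: 8 of 22 fell and none rose. On chromosome 9, the interval at 33140557 to 33141935 had 16.4 and 13.9 CPM in shIRF4 and 31.4 and 30.4 CPM in control. Each shIRF4 library lay below each control library (log2FC -1.0, SE 0.10, edgeR adjusted p = 1.06e-07). The groups did not overlap at any of the 83 changed intervals. With 2 libraries a group this adds little, since they also did not overlap at many intervals that did not pass. The interval at 33136774 to 33139158 had 14.8 and 17.5 CPM in shIRF4 and 27.6 and 29.1 CPM in control (-0.84, SE 0.10, edgeR adjusted p = 1.46e-06). The 8 lower intervals lay within 58272 bp of the gene body, between 33106619 and 33164890, among 8 others that did not pass, and their log2 fold changes ran between -1.0 and -0.31. Of the 22, 5 were called lower without shIRF4 replicate 1, 6 without either control library, and 2 in DESeq2, while 1 was called higher without control replicate 2.

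The other galactosyltransferases changed at fewer places. B4GALT5 and B4GALT6 make lactosylceramide, the base of most glycolipids. B4GALT5 had 3 lower and 2 higher of 17 intervals, none of which DESeq2 called; without control replicate 2 it had 0 lower and 1 higher, and without shIRF4 replicate 1 neither. The 2 higher ones lay next to each other beyond its end on chromosome 20. The interval at 49626063 to 49626242 had 2.88 and 2.51 CPM in shIRF4 and 1.43 and 1.34 CPM in control (log2FC 0.99, SE 0.27, edgeR adjusted p = 0.00869), and that at 49620108 to 49621716 had 34.6 and 30.1 CPM in shIRF4 and 25.6 and 26.8 CPM in control (0.32, SE 0.09, edgeR adjusted p = 0.00917). Neither held without shIRF4 replicate 1 (0.87, adjusted p = 0.135; 0.21, edgeR adjusted p = 0.185). The 49626063 interval was also lost without control replicate 2 (0.94, adjusted p = 0.0789), and the 49620108 interval without control replicate 1 (0.29, adjusted p = 0.0998). The B4GALT5 interval of smallest p among the lower ones, at 49750773, had -0.74 (edgeR adjusted p = 0.00538), and was lost with control replicate 2 (-0.62, adjusted p = 0.1) or shIRF4 replicate 1 (-0.55, adjusted p = 0.139) left out. B4GALT4, a galactosyltransferase of keratan sulfate, had 1 lower of 3 (-0.79, edgeR adjusted p = 0.000921; lost in DESeq2). B4GALT6 had 1 lower of 8, not called in DESeq2 (-0.58, edgeR adjusted p = 0.011), lost with control replicate 2 (-0.56, adjusted p = 0.0556) or shIRF4 replicate 1 (-0.29, adjusted p = 0.348) left out.

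**Figure D3:**
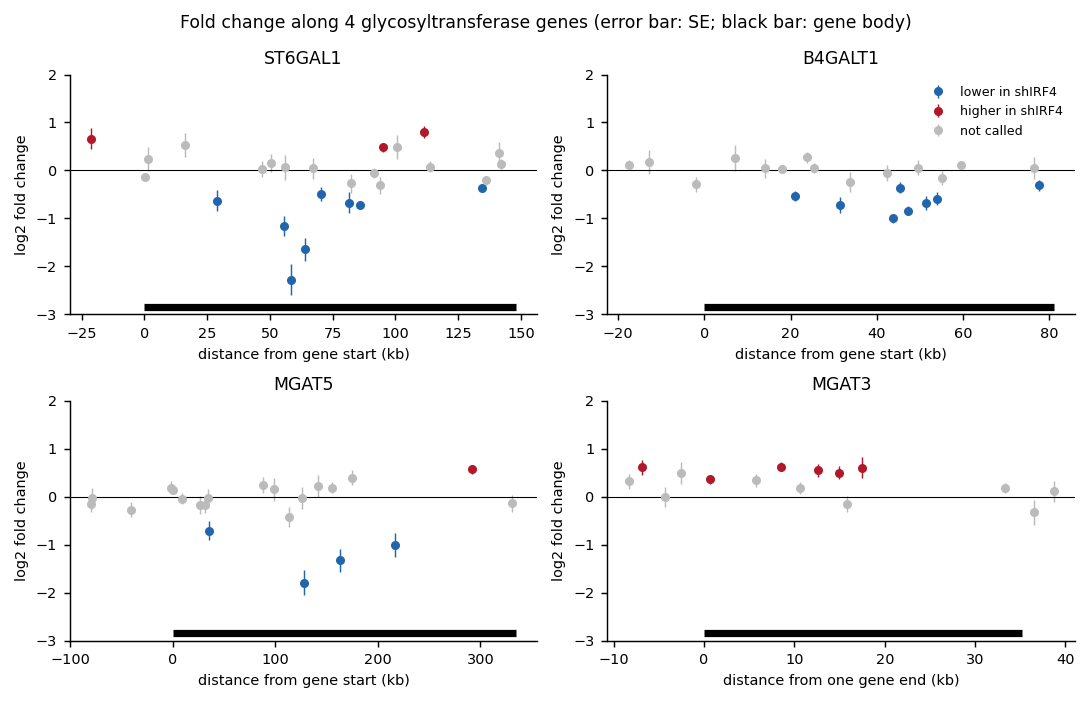
Each panel gives the log2 fold change, shIRF4 over control, of the intervals of ST6GAL1, B4GALT1, MGAT5 or MGAT3 against distance in kb from the gene's start (for MGAT3, from a gene end), with bars of 1 SE, colours for the calls and a black bar for the gene body. The changed intervals of B4GALT1 are all lower and those of MGAT3 all higher, with intervals that did not pass among them, while ST6GAL1 has lower and higher intervals along its body.

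Sialylation held the gene with the most intervals. ST6GAL1 caps N-glycans with the sialic acid that CD22 reads, and 8 of its 26 intervals fell and 3 rose. On chromosome 3, the interval at 187015857 to 187017196 had 16.5 and 16.3 CPM in shIRF4 and 27.9 and 26.2 CPM in control (log2FC -0.72, SE 0.09, edgeR adjusted p = 5.56e-06). Farther along the gene body, the interval at 187041641 to 187042573 had 14.4 and 13.5 CPM in shIRF4 and 8.22 and 7.89 CPM in control (0.80, SE 0.13, edgeR adjusted p = 5.46e-05). The interval at 187024964 to 187026414 had 26.7 and 25.1 CPM in shIRF4 and 17.7 and 19.5 CPM in control (0.48, SE 0.09, edgeR adjusted p = 0.000543). So intervals of the same gene body moved in opposite directions, with 2 others that did not pass between the lower 187015857 and the higher 187024964. Beyond them, the interval at 187064374 to 187065959 was lower again (-0.37, edgeR adjusted p = 0.00191). Of the 8 lower intervals, 7 lay within 58112 bp, between 186959085 and 187017196. The largest fall among them, picked after its values were seen, was at 186988820 to 186989171, with 0.977 and 0.764 CPM in shIRF4 and 3.10 and 5.65 CPM in control (-2.28, SE 0.32, edgeR adjusted p = 1.51e-05). Lower intervals at ST6GAL1 numbered 5 without control replicate 1 and between 6 and 8 without any other library. DESeq2 called 4 lower and 1 higher.

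ST3GAL2 and ST3GAL1 cap the core 1 O-glycan, and ST3GAL2 also acts on gangliosides. In the body of ST3GAL2 on chromosome 16, the interval at 70434467 to 70434903 had 2.77 and 3.27 CPM in shIRF4 and 8.47 and 9.45 CPM in control (log2FC -1.61, SE 0.18, edgeR adjusted p = 9.56e-07). Its neighbour at 70432431 to 70433433 had 7.76 and 9.16 CPM in shIRF4 and 17.4 and 16.5 CPM in control (-1.03, SE 0.12, edgeR adjusted p = 1.94e-06). With the next interval, at 70429692 to 70431809 (-0.51, SE 0.07, edgeR adjusted p = 1.34e-05), 3 adjoining intervals fell within 5212 bp, and all 3 passed whichever library was left out and in DESeq2. The other changed ST3GAL2 interval, at 70403701, was higher (0.36, edgeR adjusted p = 0.0188), but not without control replicate 1 (0.31, adjusted p = 0.174), control replicate 2 (0.41, adjusted p = 0.0594) or shIRF4 replicate 1 (0.26, adjusted p = 0.23). In the body of ST3GAL1 on chromosome 8, the interval at 133499113 to 133501182 had 22.9 and 22 CPM in shIRF4 and 31.3 and 30.7 CPM in control (-0.46, SE 0.08, edgeR adjusted p = 0.000332). Only 350 bp away, the interval at 133498481 to 133498762 had 5.10 and 3.71 CPM in shIRF4 and 2.85 and 2.60 CPM in control (0.76, SE 0.22, edgeR adjusted p = 0.0158). The higher ST3GAL1 call was lost with control replicate 2 (0.69, adjusted p = 0.123) or shIRF4 replicate 1 (0.46, adjusted p = 0.358) left out, and DESeq2 called neither ST3GAL1 interval.

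The remaining sialyltransferases mostly fell where they changed. ST6GALNAC4 makes the doubly sialylated core 1 O-glycan. Its start interval (chromosome 9, 127914546 to 127918177), which holds the window printed above, had 62.9 and 69.9 CPM in shIRF4 and 81.6 and 83.2 CPM in control. This modest fall (log2FC -0.32, SE 0.06, edgeR adjusted p = 0.000839) was lost in DESeq2 (adjusted p = 0.111). Another interval of the gene, at 127910619 to 127911613, had 9.12 and 11.1 CPM in shIRF4 and 16.6 and 14 CPM in control (-0.63, SE 0.13, edgeR adjusted p = 0.000985; -0.44, adjusted p = 0.0609, without shIRF4 replicate 1). ST8SIA4, a polysialyltransferase, had 4 lower and no higher of 16 intervals (1 lower in DESeq2). The clearest, on chromosome 5 at 100852923 to 100853504, had 13.8 and 12.9 CPM in shIRF4 and 21.8 and 20.7 CPM in control (-0.66, SE 0.10, edgeR adjusted p = 5.45e-05). ST8SIA6, which adds a further sialic acid to sialylated O-glycans, had 3 intervals, all over 50 kb outside the gene and 2 of them lower (3 without shIRF4 replicate 2, and 1 without any other library and in DESeq2). The interval on chromosome 10 at 17509290 to 17509499 had 1.30 and 0.982 CPM in shIRF4 and 3.27 and 4.84 CPM in control (-1.77, SE 0.28, edgeR adjusted p = 5.90e-05). ST3GAL5, the GM3 synthase, had 1 lower of 9, not called in DESeq2 (-0.51, edgeR adjusted p = 0.0104), lost without control replicate 1 (-0.34, adjusted p = 0.251), and the gene had 2 lower and 1 higher without either shIRF4 library. ST8SIA1, the GD3 synthase, had 1 higher of 6, not called in DESeq2 (0.82, edgeR adjusted p = 0.00489), lost with control replicate 2 (0.71, adjusted p = 0.0744) or shIRF4 replicate 1 (0.63, adjusted p = 0.131) left out.

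**Figure D4:**
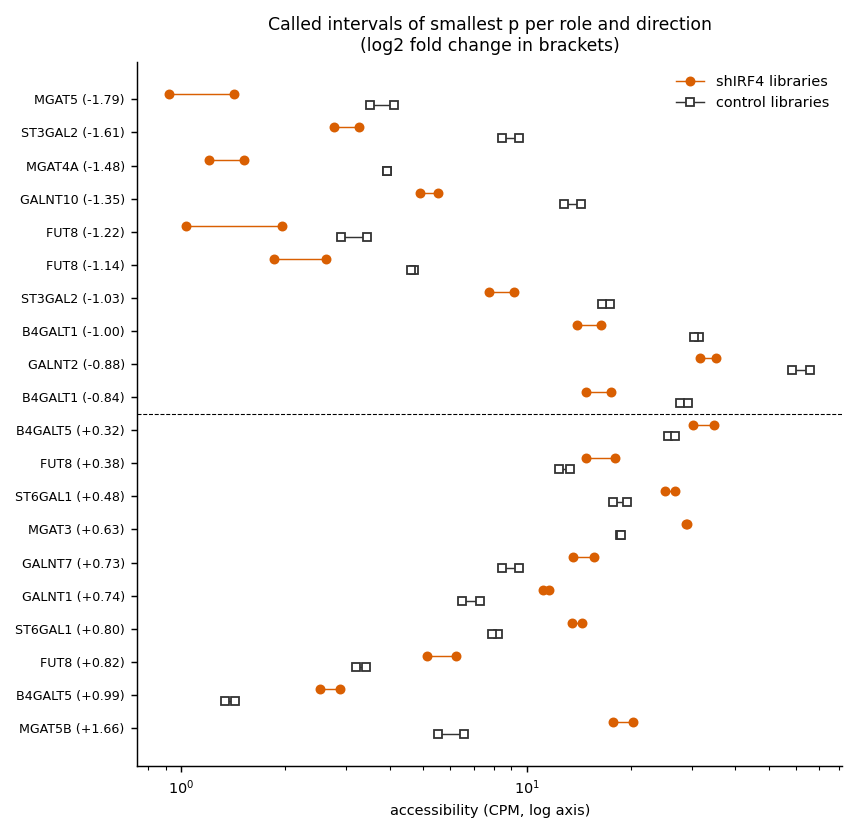
Points give the level in CPM (log axis) of the intervals of smallest p per role and direction in each library, shIRF4 beside control, and lines join the 2 libraries of a group. The intervals were chosen among those whose groups do not overlap, and MGAT5B stands at 17.7 to 20.2 CPM in shIRF4 and 5.54 to 6.55 CPM in control.

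Of the enzymes that start O-glycans, GALNT2 and GALNT10 had lower intervals and GALNT7 a higher interval. GALNT2 is broadly expressed, and GALNT7 and GALNT10 prefer peptides that already carry a sugar. In the body of GALNT2 on chromosome 1, the interval at 230122577 to 230124397 had 35.2 and 31.7 CPM in shIRF4 and 58.3 and 65.9 CPM in control (log2FC -0.88, SE 0.08, edgeR adjusted p = 3.25e-08). In GALNT10 on chromosome 5, the interval at 154284219 to 154284816 had 5.54 and 4.91 CPM in shIRF4 and 14.3 and 12.8 CPM in control (-1.35, SE 0.14, edgeR adjusted p = 3.94e-07). In GALNT7 on chromosome 4, the interval at 173252261 to 173252785 had 15.6 and 13.6 CPM in shIRF4 and 9.48 and 8.48 CPM in control (0.73, SE 0.13, edgeR adjusted p = 0.000168). GALNT2 had 4 lower of 23 intervals, of which only the interval above was called without shIRF4 replicate 1 and in DESeq2. GALNT10 had 2 lower of 9, and both passed whichever library was left out. Without shIRF4 replicate 2, GALNT2 had 5 lower and 1 higher, GALNT10 2 lower and 1 higher, and GALNT7 4 higher.

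GALNT1, a close relative of GALNT2, had 4 higher and 1 lower of 12 intervals. The clearest rise, on chromosome 18 at 35786410 to 35786905 and 74823 bp outside the gene, had 11.6 and 11.1 CPM in shIRF4 and 7.30 and 6.47 CPM in control (log2FC 0.74, SE 0.14, edgeR adjusted p = 0.000417). Of the 4 higher ones, 2 passed without control replicate 1 and 2 without control replicate 2, and only this interval without shIRF4 replicate 1 and in DESeq2. The lower GALNT1 interval, at 35591986 to 35593288, had 22.6 and 21.9 CPM in shIRF4 and 28.9 and 30.0 CPM in control (-0.40, SE 0.09, edgeR adjusted p = 0.00146; DESeq2 adjusted p = 0.129). C1GALT1 builds core 1 on the first sugar, and 3 of its 8 intervals rose, none of them with its midpoint in the gene body. Only 1 of the 3 passed without control replicate 1, 2 without any other library, and 0 in DESeq2. The C1GALT1 interval of smallest p, on chromosome 7 at 7270953 to 7271897, had 26.0 and 21.1 CPM in shIRF4 and 16.2 and 18.7 CPM in control (0.45, SE 0.11, edgeR adjusted p = 0.0035). It was lost with control replicate 1 (0.35, adjusted p = 0.0637) or shIRF4 replicate 1 (0.27, adjusted p = 0.164) left out. GCNT1, which branches core 1 into core 2, had 1 higher interval (0.99, edgeR adjusted p = 0.00856) and 1 lower (-0.57, edgeR adjusted p = 0.02) of 8. The higher GCNT1 call was lost without control replicate 2 (0.63, adjusted p = 0.233), and the lower without control replicate 1 (-0.57, adjusted p = 0.0937) and control replicate 2 (-0.58, adjusted p = 0.0934). DESeq2 called neither GCNT1 interval. GALNT3 and the I-branching gene GCNT2 had no interval that passed.

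To describe each gene as a whole, its interval counts were summed and tested over 16326 genes. Of the 36 genes, 8 were lower and 3 higher, and 25 did not pass, against 13.5% lower and 6.88% higher of all genes. The medians were -0.02 over the 36 and 0.01 over all genes. MGAT5B had 98.4 and 87.3 CPM in shIRF4 and 65.0 and 64.3 CPM in control (log2FC 0.53, SE 0.06, edgeR adjusted p = 1.05e-05). MGAT3 had 169 and 174 CPM in shIRF4 and 137 and 133 CPM in control (0.34, SE 0.05, edgeR adjusted p = 7.16e-05). These 2 branching genes were the clearest rises, while other intervals within 500 kb had medians of 0.04 around MGAT5B and 0.01 around MGAT3. Around MGAT5B, 15 of the 83 such intervals were higher and 6 lower, and around MGAT3 5 of 56 were higher and 5 lower. ST8SIA6 had 9.42 and 11.0 CPM in shIRF4 and 17 and 16.9 CPM in control (-0.76, SE 0.12, edgeR adjusted p = 0.000198). ST6GALNAC4 had 83.3 and 93.8 CPM in shIRF4 and 113 and 112 CPM in control (-0.36, SE 0.06, edgeR adjusted p = 0.000274). Around these 2 sialyltransferase genes the medians were 0.01 and 0.00. GALNT2 (-0.27), ST3GAL1 (-0.25), GALNT10 (-0.24), B4GALT1 (-0.20), ST3GAL2 (-0.20) and ST6GAL1 (-0.16) were also lower, and C1GALT1 was higher (0.17), with adjusted p between 0.00115 and 0.0236 in edgeR. Without control replicate 1, the sums of B4GALT1 (adjusted p = 0.182), ST3GAL2 (0.147), ST6GAL1 (0.249) and C1GALT1 (0.123) did not pass in edgeR. Without control replicate 2, B4GALT1 (adjusted p = 0.224), ST3GAL2 (0.0712), ST6GAL1 (0.223), C1GALT1 (0.131) and GALNT2 (0.0647) did not pass in edgeR. DESeq2 did not call the sums of ST3GAL1 (adjusted p = 0.122), ST3GAL2 (0.0632), ST6GAL1 (0.204), GALNT10 (0.0875) or C1GALT1 (0.248). FUT8 (-0.01, edgeR adjusted p = 0.915) and MGAT5 (0.01, edgeR adjusted p = 0.946) had sums near 0. Both genes held lower and higher intervals, but whether these offset each other in the sums was not tested. At MGAT5 the 2 shIRF4 libraries lay on both sides of control, with 267 and 222 CPM against 241 and 247 CPM. The MGAT5 sum was lower without shIRF4 replicate 1 (-0.14, adjusted p = 0.00974) and higher without shIRF4 replicate 2 (0.12, adjusted p = 0.00262).

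**Figure D5:**
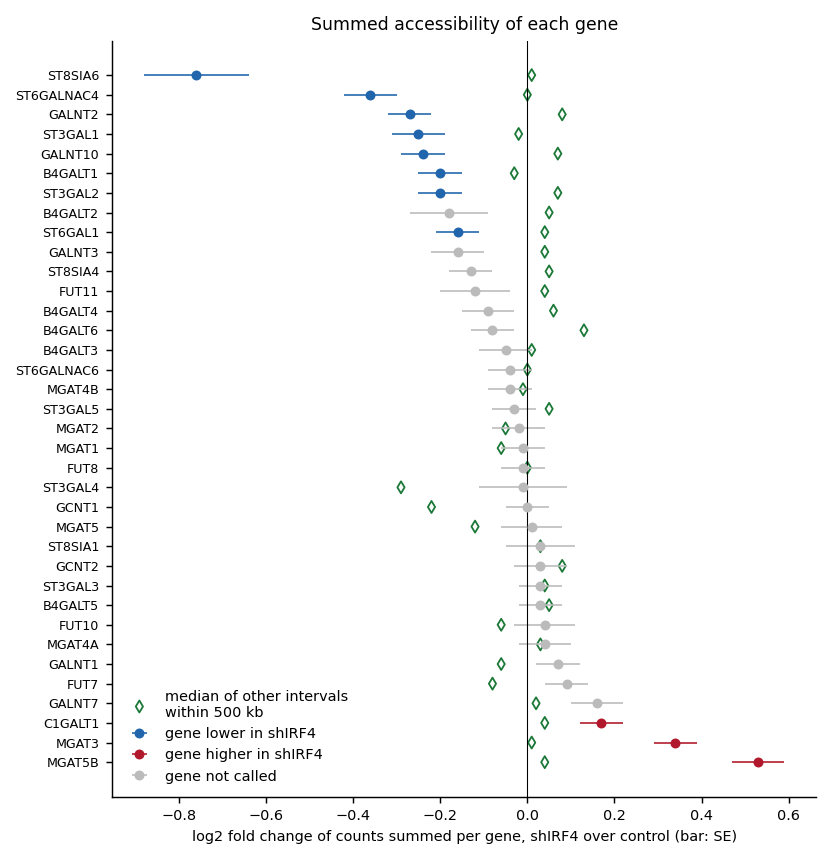
Points give the log2 fold change, shIRF4 over control, of the summed counts of each of the 36 genes with bars of 1 SE and colours for the calls, and open diamonds give the median of other intervals within 500 kb. MGAT5B at 0.53 and ST8SIA6 at -0.76 mark the ends, and most genes lie near 0.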

How the data were processed

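Chromatin accessibility was measured in 2 shIRF4 and 2 control libraries of TMD8 cells. Raw counts per merged peak interval were deposited by the authors, made with featureCounts 2.0.0 on paired reads reduced to 5′ ends with duplicates ignored, per the file headers. Coordinates follow hg38, per the submitters' processing notes. Which aligner and peak caller were used, and whether read ends were shifted, is not given in the sources used here. Ignoring duplicates can cap counts at densely read intervals, more so in a deeper library.

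Counts were tested with edgeR 4.0.16 (with limma 3.58.1, R 4.3.3): filterByExpr removed 107 intervals and left 73028, libraries were scaled with TMM factors (0.981 to 1.03), and the quasi-likelihood test (two-sided, group as the only term) was adjusted by Benjamini and Hochberg over all tested intervals or genes, with a threshold of 0.05. SE is the log2 fold change divided by the square root of F. Counts were also simulated from the same means and library sizes, at a fixed dispersion and with 100 features changed by each fold. There 74% of 2-fold and 12% of 1.5-fold changes were recovered at intervals, and 100% and 62% for sums over genes. The changed features were drawn only from those above a floor on mean count, so these shares leave out the weakest intervals. Far more intervals were called in the data (11345 lower and 5306 higher), so these shares need not hold there. Gene bodies, starts and symbols came from RefSeq tables of GRCh38.p14, where FUT10 and FUT11 are listed as POFUT3 and POFUT4.

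The genes, the lists and the tests were chosen with earlier results of these data known. The text names, per gene, the changed interval of smallest p in each direction whose groups do not overlap, or the most abundant interval where none changed, and gives each library for at most 2 per role and direction; others with values in each library were added. The labels state no pairing by replicate number, so the main test fitted none. Deviations of the same-numbered libraries correlated at -0.0262, which cannot show whether they shared a culture or batch. Alternatives were other scalings, no filter, DESeq2 1.42.0, a replicate block, a 1.5-fold threshold, narrower assignments and leaving out each library.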

Additional observations from a re-analysis of the deposited data

How the results depend on the processing

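Scaling by library totals (46 lower, 34 higher, 11 gene sums changed), by RLE size factors (51, 32 and 11) and omitting the filter on low counts (51, 32 and 11) left the counts within 1.5 times those reported (51, 32 and 11). By library totals the lower share of all changed intervals in the genome was 58.1%, against 68.1% as reported. DESeq2 called 17 lower, 6 higher and 6 gene sums. Against a 1.5-fold change, 15 were lower and 1 was higher. Intervals in gene bodies alone gave 45 lower and 17 higher, and those within 10 kb of a gene 45 and 22. With the control libraries summed as 1 sample, chosen after seeing the data, 46 were lower, 25 higher and 7 gene sums changed. Leaving out each library in turn gave 33 to 53 lower, 17 to 40 higher and 6 to 14 gene sums. The replicate block gave 51 lower, 32 higher and 12 gene sums; it lost 1 lower interval and gained another.

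None of the 83 changed intervals turned its sign under any of the 11 settings run on single intervals. Each had groups that did not overlap, so leaving out or summing libraries left little room for a turned sign. Of the 33 named after the rule, 8 passed under all 11 (MGAT4A 98664386, MGAT5 134247753, MGAT5B 76997895, B4GALT1 33140557, ST3GAL2 70434467, ST8SIA6 17509290, GALNT2 230122577 and GALNT10 154284219) and 15 under the 10 without the 1.5-fold threshold. Of the 11 changed gene sums, MGAT5B, MGAT3, ST8SIA6 and ST6GALNAC4 passed under all 10 settings. The MGAT5 sum changed sign, with -0.14 without shIRF4 replicate 1, 0.12 without shIRF4 replicate 2 and 0.01 with all libraries; the cause was not tested.

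With 2 libraries a group, small changes at single intervals can be missed. The simulation recovered 12% of 1.5-fold changes, at intervals above a floor on mean count. Its settings differed from the data, where changes under 1.5-fold were called, such as 0.32 at B4GALT5 and -0.32 at ST6GALNAC4 (log2FC). The weak intervals rest on few reads: 0.923 CPM at MGAT5 in the first shIRF4 library stands for under 20 reads. Intervals of the same gene are not independent.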

Other observations

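The enzymes and donors around these glycosyltransferases changed at about the rate of the genome. Over 92 further glycosylation genes, 80 of which had intervals, 43 of 282 intervals were lower (15.2%) and 26 higher (9.22%), against 15.5% and 7.27% of all tested intervals in edgeR. Genes that build and transfer the N-glycan precursor had 2 lower and 6 higher of 56, trimming glycosidases 7 and 2 of 32, sugar donor and transporter genes 12 and 2 of 51, and sialidases 2 and 1 of 10. Lectins and ligands had 6 lower and 4 higher of 38, and other glycosyltransferases 14 and 11 of 95.

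NEU3, a sialidase of gangliosides, had an interval on chromosome 11 (75049345 to 75050375) with 6.45 ± 1.21 CPM in shIRF4 and 18.3 ± 1.11 CPM in control (SD, n = 2 each), a log2 fold change of -1.56 (SE 0.13, adjusted p = 2.24e-08, edgeR). MAN2A1, the Golgi mannosidase that trims the core after MGAT1, had an interval with 3.02 ± 0.0488 CPM in shIRF4 and 10 ± 0.458 CPM in control (SD, n = 2 each; -1.73, SE 0.17, adjusted p = 1.71e-07, edgeR). In all, 3 of the 6 MAN2A1 intervals were lower and 1 was higher. GMDS, which makes the fucose donor, had 6 lower of 19 intervals. Higher intervals lay at LGALS9, the galectin-9 gene (3 of 5), and at ST8SIA5, a ganglioside sialyltransferase, with 28.0 ± 4.25 CPM in shIRF4 and 16.4 ± 0.389 CPM in control (SD, n = 2 each; 0.80, SE 0.10, adjusted p = 5.83e-06, edgeR). These genes were picked after their values were seen, and their calls are given only for edgeR with all libraries.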
